A study of Homo sapiens with 5 samples.

Results

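The genes described here are 10 genes that are typical of T cells and their cytotoxic relatives, namely CD4, CD2, CD7, CD3D, CD3E, CD3G, CD247, LCK, ZAP70 and NKG7. A probe set was found in the table used here for 9 of the 10, among 7713 genes with a probe set in all, and ZAP70 is not analysed here. Each of the 9 had 1 probe set, so that no choice among probe sets was needed. The genes were given by name, and the measured values served to divide them into brighter and dimmer ones, as the rule asks.

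Expression was measured on Affymetrix arrays in KM-H2 (KMH2 in the labels), an established Hodgkin lymphoma cell line. In 1 group the cells were kept for 16 hours with 30 uM LY294002, and in the other with DMSO, the solvent control. LY294002 is a compound used to inhibit phosphoinositide 3-kinase (PI3K). There were 3 DMSO arrays and 2 LY294002 arrays, because 1 array of a planned triplicate had been left out for high background. All arrays come from this 1 line, and no T cells were arrayed beside it. The labels do not state whether the replicates were grown as separate cultures. The p-values therefore rest only on how far these 5 arrays differ within their groups, for the gene itself and in part over all probe sets. That spread could be technical.

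As background, mature T cells recognise antigen with a T cell receptor that is held at the surface by the CD3 chains and by the zeta chain encoded by CD247. The tails of these chains carry activation motifs that the kinase LCK phosphorylates, and the kinase ZAP70 then binds them. CD4 is a coreceptor that binds MHC class II and brings LCK to the receptor, while CD2 and CD7 are surface glycoproteins of T and NK cells, and NKG7 is a protein of cytotoxic granules. Hodgkin and Reed-Sternberg cells mostly descend from B cells. They are known for having lost much of the B cell programme and for carrying products of other lineages, T cell markers among them in some cases. CD4 is also made by monocytes and macrophages, so it is not a marker of T cells alone.

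The 9 genes fell into a brighter and a dimmer set with DMSO. CD4, CD3D, CD3E, CD2 and CD3G lay above the array median, which was 6.27 on the log2 scale as the mean of the 3 DMSO arrays, and CD247, LCK, NKG7 and CD7 lay below it. Of all 7713 genes, 50.2% lay above that median. With LY294002, 0 of the 9 genes passed the test across all probe sets (limma, Benjamini-Hochberg adjusted p under 0.05), against 0.908% of all genes (0.609% higher and 0.298% lower). At an unadjusted p under 0.05 there was 1 of the 9, CD4, against 17.1% of all genes. With the array median as the line, 5 of the 9 measured genes would bear the name of the set, T cell genes expressed in Hodgkin cells. That share is near the 50.2% of all genes. With the 60th percentile as the line the count was 3. A probe set value depends on how well its probes bind as well as on the amount of RNA, so a value above the median does not by itself show expression, nor does a value below it show absence.

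**Figure D1:**
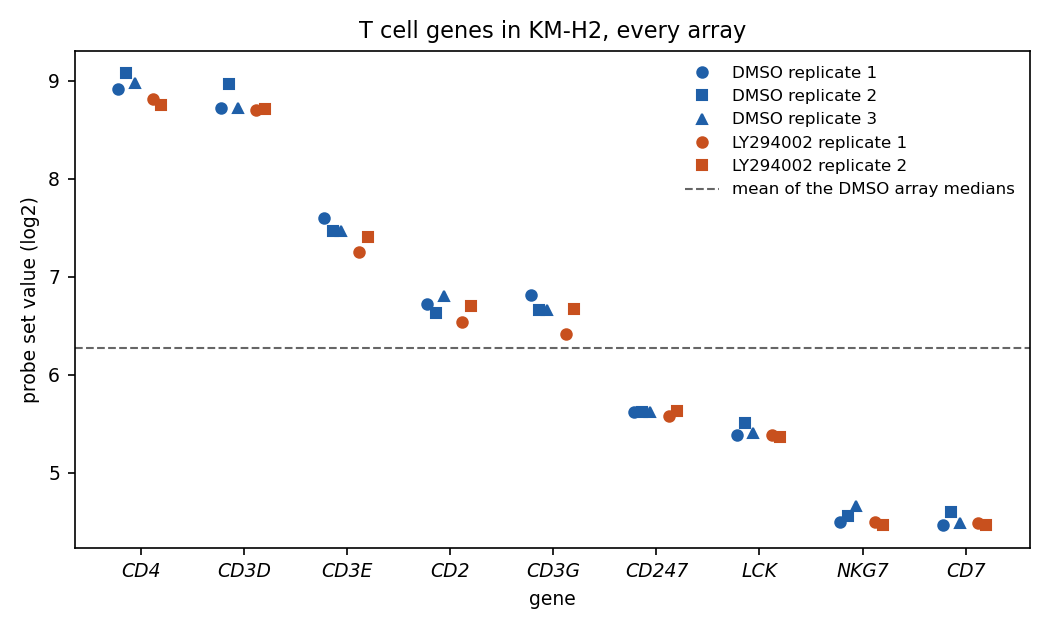
Log2 probe set value (vertical axis) of the 9 T cell genes (horizontal axis) on each of the 3 DMSO arrays (blue) and 2 LY294002 arrays (orange), with the mean of the DMSO array medians dashed. CD4 and CD3D sit near 9, CD3E between 7.26 and 7.60, CD2 and CD3G just above the dashed line at 6.27, and the other 4 genes below it on all 5 arrays.

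CD4 was the brightest member. Its log2 values were 8.92, 9.08 and 8.98 on DMSO replicates 1, 2 and 3, and 8.81 and 8.75 on LY294002 replicates 1 and 2. Both LY294002 arrays were thus below all DMSO arrays. The means were 8.99 ± 0.08 (SD, n = 3) and 8.78 ± 0.04 (SD, n = 2), and CD4 stood at percentile 92.0 of all genes with DMSO. LY294002 minus DMSO was -0.21 ± 0.06 on the log2 scale (SE of the fit; limma adjusted p = 0.178), with a 95% interval of -0.36 to -0.06 that is not adjusted for the number of genes. As a fold this is 0.864, with an interval of 0.777 to 0.960. After quantile normalization of the arrays CD4 passed, at -0.28 with a limma adjusted p of 0.0396, in a setting where 3.88% of all genes passed. In the other alternatives its adjusted p lay above 0.05, up to 0.538. A difference at least as far below 0 as that of CD4 was seen in 6% of all genes and in 9.94% of those above the array median.

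The CD3 chains form the signalling part of the T cell receptor. The genes of the epsilon, delta and gamma chains lie side by side on chromosome 11, with no other protein-coding gene between them in the RefSeq table, and CD247 lies apart on chromosome 1. The sequence before the start of CD3D and of CD247 is shown because these are chains of 1 complex whose probe sets were on opposite sides of the array median. The 250 bases before each annotated start are printed on the gene's strand, from RefSeq (GRCh38.p14), at chr11:118342706-118342955 on the minus strand for CD3D and at chr1:167518530-167518779 on the minus strand for CD247. Capitals mark CANNTG, the E-box bound by basic helix-loop-helix factors such as those encoded by TCF3 and TCF12, and TGTGGT, the core bound by RUNX factors. Both motifs were searched on both strands.
CD3D: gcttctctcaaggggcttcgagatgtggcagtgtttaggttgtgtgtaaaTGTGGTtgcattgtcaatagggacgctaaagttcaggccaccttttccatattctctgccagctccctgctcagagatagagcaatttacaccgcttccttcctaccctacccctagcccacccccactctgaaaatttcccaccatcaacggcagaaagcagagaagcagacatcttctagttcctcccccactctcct
CD247: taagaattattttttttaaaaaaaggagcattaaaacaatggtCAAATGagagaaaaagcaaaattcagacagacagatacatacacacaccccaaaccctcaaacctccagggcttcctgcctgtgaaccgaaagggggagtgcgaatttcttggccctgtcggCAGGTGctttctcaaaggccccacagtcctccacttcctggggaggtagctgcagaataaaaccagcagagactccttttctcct
The CD3D window held 1 TGTGGT and 0 CANNTG, and the CD247 window held 0 TGTGGT and 2 CANNTG. Among the other measured members, the brighter CD2 had the same counts as CD247, and so had the dim NKG7. The dim LCK had 2 windows, 1 with the counts of CD3D and 1 with 0 TGTGGT and 1 CANNTG. For CD4, CD3E, CD3G and CD7 no window was available. Over 35116 windows of this length in the RefSeq table, 11% held TGTGGT and 61.8% held CANNTG. These matches describe letters and say nothing about binding, and nothing was measured at these windows.

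CD3D, the delta chain, had log2 values of 8.72, 8.97 and 8.72 on DMSO replicates 1, 2 and 3. With LY294002 they were 8.70 and 8.71. Both LY294002 arrays were lower than all DMSO arrays, yet by very little: DMSO replicates 1 and 3, whose values are identical, lay just above them, and DMSO replicate 2 alone stood clearly higher. The means were 8.80 ± 0.15 (SD, n = 3) and 8.71 ± 0.0055 (SD, n = 2), and the difference was -0.10 ± 0.09 (limma adjusted p = 0.573; 95% interval -0.34 to 0.15). Without DMSO replicate 2 it was -0.014.

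CD3E, the epsilon chain that pairs with the delta or gamma chain, had 7.60, 7.47 and 7.47 on DMSO replicates 1, 2 and 3, the last pair identical. The LY294002 arrays had 7.26 and 7.41, again both below the DMSO arrays. The means were 7.51 ± 0.07 (SD, n = 3) and 7.33 ± 0.11 (SD, n = 2), and the difference was -0.18 ± 0.07 (limma adjusted p = 0.303; 95% interval -0.37 to 0.0037). Leaving out LY294002 replicate 1 gave -0.11, and leaving out LY294002 replicate 2 gave -0.26.

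CD3G, the gamma chain, had 6.81, 6.67 and 6.67 on DMSO replicates 1, 2 and 3, and 6.42 and 6.67 with LY294002. Here the groups overlapped, since LY294002 replicate 2 lay just above the identical values of DMSO replicates 2 and 3. The difference was -0.17 ± 0.10 (limma adjusted p = 0.438; 95% interval -0.43 to 0.09). Leaving out LY294002 replicate 1 gave -0.04, and leaving out LY294002 replicate 2 gave -0.30. With 2 LY294002 arrays, each of these is the deviation of the array that remains. The 2 arrays lay 0.26 apart.

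CD247, the zeta chain, had 5.62 on all 3 DMSO arrays, 2 of them identical, and 5.58 and 5.63 on the LY294002 arrays, which lay on either side of the DMSO values. The difference was -0.017 ± 0.03 (limma adjusted p = 0.772; 95% interval -0.10 to 0.07). Its spread with DMSO was 1.11e-06, far below that of the other members, so that its standard error comes largely from the variance that limma borrows from all probe sets. The sign was turned after cyclic loess (0.0074) and without LY294002 replicate 1 (0.011). Leaving out LY294002 replicate 2 gave -0.045.

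CD2, an adhesion receptor that binds CD58 on other cells, had 6.73, 6.63 and 6.81 on DMSO replicates 1, 2 and 3, and 6.54 and 6.71 with LY294002. LY294002 replicate 1 was the lowest of the 5 arrays, and LY294002 replicate 2 lay inside the DMSO range. The difference was -0.10 ± 0.08 (limma adjusted p = 0.513; 95% interval -0.30 to 0.11). Leaving out LY294002 replicate 1 gave -0.017, and leaving out LY294002 replicate 2 gave -0.18. With DMSO, CD2 (6.72 ± 0.09; SD, n = 3) and CD3G (6.71 ± 0.08; SD, n = 3) stood 0.45 and 0.44 above the array median, at percentiles 59.1 and 58.9 of all genes.

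The dim members were LCK, NKG7 and CD7 beside CD247. LCK, the kinase that starts signalling from the receptor and is bound by CD4, had 5.39, 5.51 and 5.41 on the DMSO arrays and 5.39 and 5.37 on the LY294002 arrays. LY294002 replicate 1 had exactly the value of DMSO replicate 1, and the difference was -0.06 ± 0.05 (limma adjusted p = 0.529; 95% interval -0.18 to 0.07). Without DMSO replicate 2 it was -0.021. The probe sets of LCK and CD7 are of the kind (_s_at) whose probes can match several transcripts. LCK stood at percentile 29.4 of all genes with DMSO.

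NKG7 had 4.50, 4.56 and 4.67 on the DMSO arrays and 4.50 and 4.47 on the LY294002 arrays. The difference was -0.09 ± 0.06 (limma adjusted p = 0.455; 95% interval -0.25 to 0.06). CD7, an early marker of the T lineage, had 4.47, 4.60 and 4.49 on the DMSO arrays and 4.49 and 4.47 on the LY294002 arrays, and its difference was -0.04 ± 0.05 (limma adjusted p = 0.663; 95% interval -0.18 to 0.09). Without DMSO replicate 2 the difference of CD7 was -7.84e-05, and without DMSO replicate 3 that of NKG7 was -0.047. For both genes an LY294002 value was identical to a DMSO value. They stood at percentiles 9.28 and 8.30 of all genes with DMSO, near the low end of the values on these arrays.

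**Figure D2:**
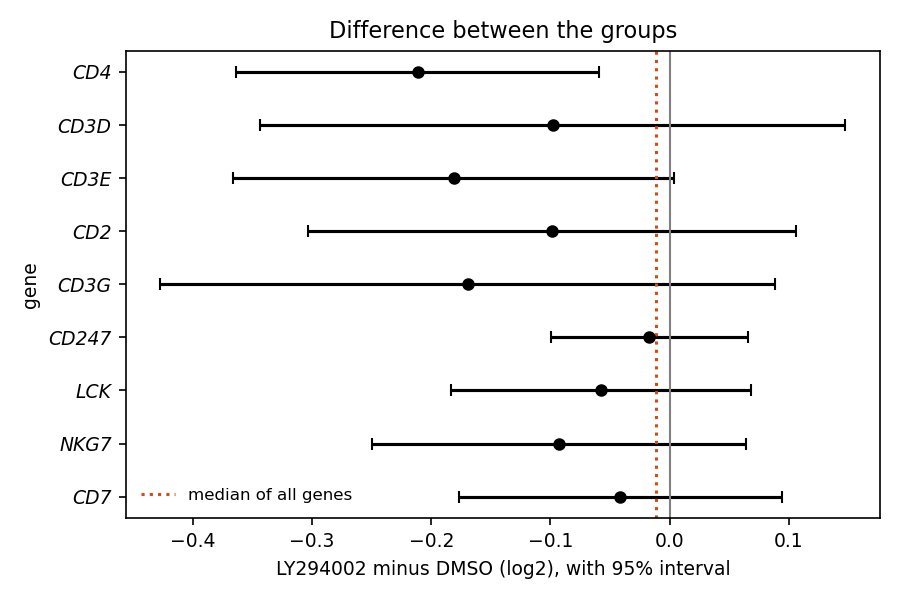
LY294002 minus DMSO on the log2 scale (horizontal axis) for each gene (vertical axis), from limma on 3 DMSO and 2 LY294002 arrays. Points are differences, bars are unadjusted 95% intervals, and the dotted line is the median of all genes at -0.01; all 9 points lie left of 0, though CD247 at -0.017 crosses it after cyclic loess or without LY294002 replicate 1, and the interval of CD4 alone leaves out 0.

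In order of probe set value with DMSO, the genes ran from CD4 through CD3D, CD3E, CD2, CD3G, CD247, LCK and NKG7 to CD7. The DMSO ranges of CD4 and CD3D overlapped, as did those of CD2 and CD3G and those of NKG7 and CD7, so neither neighbour of these pairs stood above the other beyond its spread. The other 5 steps in the order were between ranges that did not overlap, the widest of them 1.29 between CD3D and CD3E. This is an order of probe set values, not of RNA amounts, because probes differ in how well they bind.

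All 9 differences were below 0 as reported (8 of 9 after cyclic loess or without LY294002 replicate 1, where CD247 was above it), which was so for 55.5% of all genes. It was also so for 15 of 19 other T cell surface genes and 20 of 22 cytotoxic and NK genes. Of 33 genes listed as restricted to other tissues, 27 were below 0 too. Values below 0 were thus not confined to these members. The median over the 9 was -0.10 and over all genes -0.01. Both LY294002 arrays lay below all DMSO arrays for 3 of the 9 (CD4, CD3D and CD3E), against 13.4% of all genes, and above them for 0, against 16.2%. The 3 were among the 5 brighter members. In this brighter set the median difference was -0.17, beside 0.0076 over the 3874 genes above the array median, of which 47.8% had a difference below 0 and 16.1% had both LY294002 arrays lowest. In the dim set the median was -0.05, beside -0.02 over the 3839 genes below the array median, of which 63.2% were below 0. Without LY294002 replicate 1 the median of the brighter set was -0.09, beside 0.0054 over the genes above the array median, and without DMSO replicate 2 that of the dim set was -0.019, the same as over the genes below the array median. These medians describe the members and are no test. The intervals of the 9 genes together ran from -0.43 to 0.15 on the log2 scale, which is 0.744-fold to 1.11-fold, so a change beyond that range lay outside each unadjusted interval. No gene is named for a pattern like that of a member, because 0 members passed.

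The lower values with LY294002 were not spread evenly over the arrays. As a mean over the 5 brighter genes, the deviation from the DMSO mean was 0.0059, 0.01 and -0.02 on DMSO replicates 1, 2 and 3, and -0.20 and -0.10 on LY294002 replicates 1 and 2. CD4 was lower on LY294002 replicate 2, whereas CD3E, CD2 and CD3G were lower on LY294002 replicate 1. For the 4 dim genes the mean deviation was -0.04, 0.04 and 0.0070 on the DMSO arrays and -0.05 on each LY294002 array, so that DMSO replicate 1 was about as low as the LY294002 arrays. The lowest of the 5 arrays was LY294002 replicate 1 for 5 genes and LY294002 replicate 2 for 4. For CD7 the margin was tiny, with 4.47303 on LY294002 replicate 2 beside 4.47319 on DMSO replicate 1. The groups overlapped for 6 of the 9 genes. How many of all genes were lowest on an LY294002 array was not counted, so this is no sign of an even fall.

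**Figure D3:**
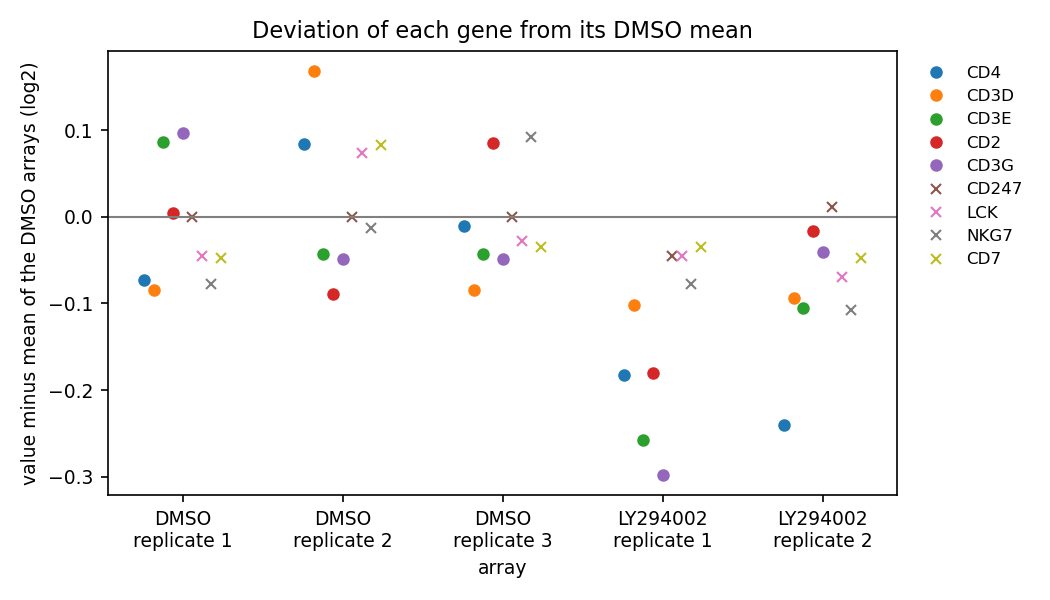
Log2 value of each gene minus its own DMSO mean (vertical axis) on each array (horizontal axis), with circles for the 5 genes above the array median and crosses for the 4 below it. On the LY294002 arrays all points lie below 0 except CD247 on replicate 2, and CD3G, CD3E and CD2 lie far apart between these arrays.

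Array medians lay between 6.26 and 6.29. The upper quartile was 7.69 on LY294002 replicate 1, the array on which CD3E, CD2 and CD3G were lowest, and 7.59 to 7.62 on the other 4 arrays. After quantile normalization the differences of CD3E, CD2 and CD3G were -0.23, -0.11 and -0.17, beside -0.18, -0.10 and -0.17 as reported. A link between the upper quartile and these values was not tested. Without LY294002 replicate 1 the differences of CD3E, CD2 and CD3G were -0.11, -0.017 and -0.04. Those of CD3D and CD247, also lowest on it, were -0.09 and 0.011. With 2 LY294002 arrays, leaving out the lower one raises a difference by construction, so this says nothing about that array. The differences of CD4, LCK, NKG7 and CD7, lowest on LY294002 replicate 2, became -0.24, -0.07, -0.11 and -0.05, further from 0. Pearson's r over probe sets was 0.996 to 0.998 within groups and 0.989 to 0.992 between groups. Exactly equal values on at least 1 pair of arrays were found in 56.5% of probe sets and in 7 of the 9 T cell genes, in 4 of them among DMSO arrays. Equal values narrow the spread within a group.

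Marker lists place these levels in the cells. Of 16 genes linked to Hodgkin and Reed-Sternberg cells, 13 lay above the array median with DMSO, led by CD83 at 10.66, CD40 at 10.42 and JUNB at 9.56. Of 14 B cell markers 6 did, led by CD74 at 11.95, MS4A1 at 10.42 and CR2 at 10.17. Of 12 myeloid and monocyte markers 0 did, the highest being FPR1 at 6.21, ITGAM at 6.03 and ITGAX at 5.96. The myeloid list named 16 genes, of which these 12 were measured. CD14 was at 5.65 and CSF1R at 5.81, but a value below the median does not show absence. Whether the CD4 value goes with a myeloid trait of these cells was not tested. As a reference, 33 genes listed as restricted to other tissues ran from 3.94 to 8.16. Their median was 5.07, and 5 lay above the array median. Whether lymphoid cells make any of these genes was not tested. The highest were SFTPC, a surfactant gene of lung, at 8.16, TTR at 7.67 and CGA at 7.27. CD4 and CD3D were above all 33, CD3E was below 2 of them, and CD2 and CD3G were below 3. CD247 was below 11, LCK below 13, NKG7 below 26 and CD7 below 27.

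**Figure D4:**
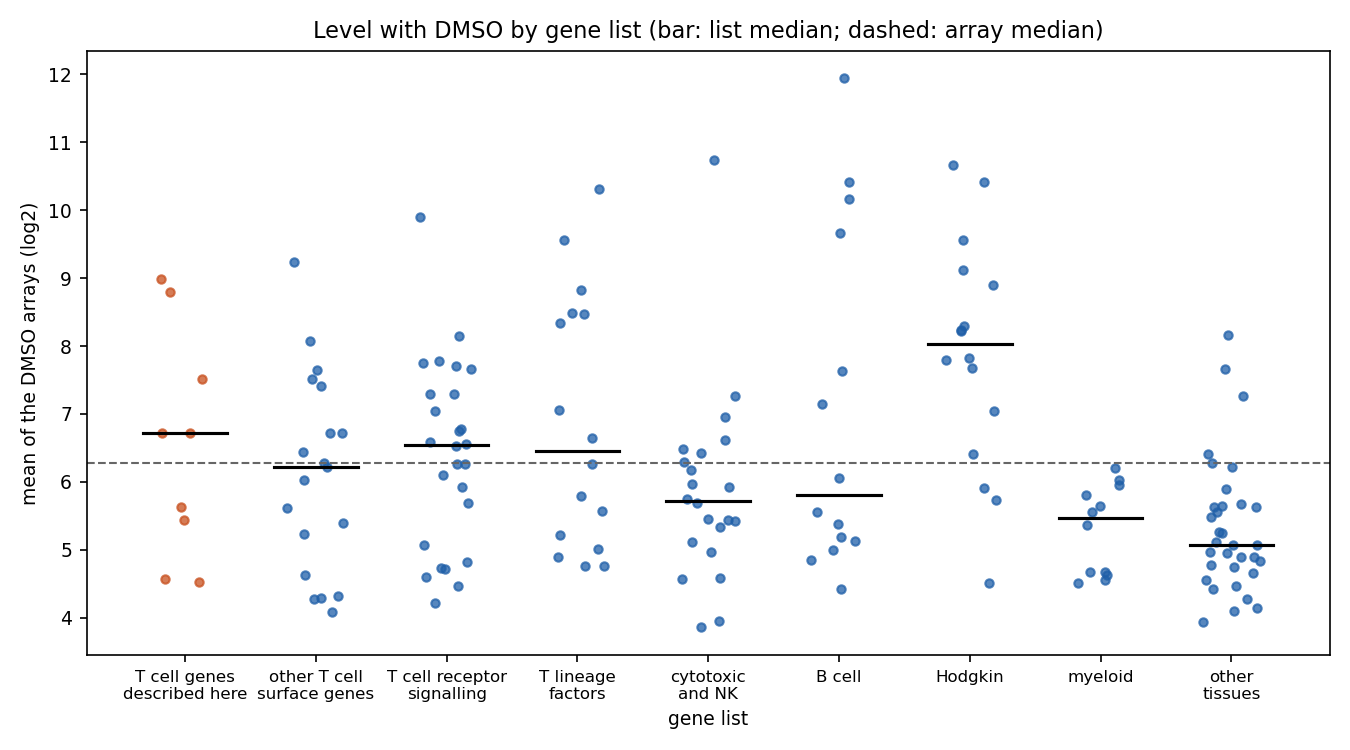
Mean of the 3 DMSO arrays on the log2 scale (vertical axis) for the measured genes of each list (horizontal axis), with the list median as a bar and the array median dashed. The Hodgkin list has its median at 8.02, all 12 myeloid genes lie below the dashed line, and CD4 and CD3D in the first column lie above all 33 genes of other tissues.

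Other T cell surface and receptor genes lay on both sides of the array median. Of 31 listed, 19 were measured and 9 lay above the array median. The brightest were IL2RB, a chain of the interleukin 2 receptor, at 9.24, SLAMF1, a costimulatory receptor, at 8.08, and CD5, an inhibitory coreceptor, at 7.65. None of the 19 passed with LY294002 (0 higher and 0 lower), and their median difference was -0.09. IL2RB differed by -0.12 ± 0.07, SLAMF1 by -0.52 ± 0.13 and CD5 by 0.0095 ± 0.03 (limma adjusted p = 0.446, 0.169 and 0.858). Both SLAMF1 arrays with LY294002, at 7.63 and 7.51, lay below its DMSO arrays, at 7.86, 8.27 and 8.11.

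Among other genes of T cell receptor signalling, 26 of 35 listed were measured. Of these 14 lay above the array median and 0 passed in either direction, with a median difference of -0.0086. CSK, the kinase that holds LCK inactive, was the brightest at 9.91 and differed by 0.22 ± 0.13. NFATC3, a calcium-regulated factor, was at 8.15 and differed by 0.32 ± 0.13, and PRKCQ, protein kinase C theta, was at 7.79 and differed by 0.03 ± 0.05 (limma adjusted p = 0.443, 0.331 and 0.723). The list of SRC and SYK family kinases holds LCK and 6 other measured genes. SRC was at 8.32, FYN, a relative of LCK that is also active in T cells, at 7.30 and LYN, the main such kinase of B cells, at 6.87. FYN was 7.26, 7.32 and 7.32 on the DMSO arrays and 7.91 and 7.69 on the LY294002 arrays, a difference of 0.50 ± 0.07 that did not pass (limma adjusted p = 0.0732). SRC differed by -0.04 ± 0.05 and LYN by -0.15 ± 0.07 (limma adjusted p = 0.629 and 0.373), and 0 of the 7 passed.

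Other receptors and adaptors that carry the same activation motif as the CD3 chains were mostly dim. Of 5 measured, 1 lay above the array median, the Fc receptor gene FCGR2A at 6.44, while CD79A and CD79B, the partners of the B cell receptor, were at 6.05 and 5.18. They differed by -0.30 ± 0.11, 0.06 ± 0.07 and 0.01 ± 0.03 (limma adjusted p = 0.293, 0.658 and 0.848), and 0 of the 5 passed. Of 8 measured relatives and partners of CD4, which include CD4 and LCK, 6 lay above the array median and 0 passed. AP2M1, a subunit of the adaptor that takes CD4 into the cell, was at 9.53 and differed by 0.24 ± 0.08, and CXCR4, the chemokine receptor, was at 8.78 and differed by -0.30 ± 0.12 (limma adjusted p = 0.256 and 0.318).

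T lineage transcription factors were measured for 16 of 24 listed genes. Of these 8 lay above the array median and 0 passed, with a median difference of -0.0097. The brightest was ID2, an antagonist of E proteins, at 10.32. GATA3, a factor of T cell development that is also known from Hodgkin cells, was at 9.56 and LEF1 at 8.82. BCL11B, ZBTB7B and ZBTB16 lay below the array median, at 5.01, 5.80 and 5.22, and TBX21 lay above it at 6.65. How far the listed genes are restricted to T cells was not tested. GATA3 had 9.11, 9.76 and 9.79 on the DMSO arrays and 9.26 and 9.07 on the LY294002 arrays. DMSO replicate 1 stood with the LY294002 arrays, and the difference was -0.39 ± 0.24. ID2 differed by 0.10 ± 0.21 and LEF1 by 0.25 ± 0.07 (limma adjusted p = 0.798 and 0.204; 0.450 for GATA3).

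Genes of cytotoxic granules and NK cells, the programme to which NKG7 belongs, were measured for 22 of 29 listed. Of these 7 lay above the array median and 0 passed, with a median difference of -0.06. SRGN, the granule proteoglycan, which many blood cells make, was at 10.74 and differed by 0.06 ± 0.06. KLRG1 and KLRD1, lectin receptors of NK cells, were at 7.27 and 6.95 and differed by -0.37 ± 0.08 and -0.15 ± 0.13 (limma adjusted p = 0.613 for SRGN, 0.127 and 0.540). The mean level of the list was 5.85 to 5.87 on the DMSO arrays and 5.73 to 5.79 on the LY294002 arrays.

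On the same arrays the B cell list held genes that did pass. SPIB, CR2 and BLNK fell, with log2 differences of -0.98 ± 0.05, -0.76 ± 0.08 and -1.48 ± 0.15 (limma adjusted p = 0.0168, 0.0437 and 0.0419), and the other 11 of 14 did not pass. Of the Hodgkin list IRF4 rose by 0.66 ± 0.07 (limma adjusted p = 0.0473) and the other 15 did not pass; of the myeloid list 0 of 12 passed, and of the genes of other tissues 0 of 33. The calls of SPIB, CR2, BLNK and IRF4 were lost when any 1 of the 3 DMSO arrays was left out, where 0 to 4 of all genes passed. They were also lost with the replicate block (0 of all genes passed) and without variance moderation (1 passed). With array weights (17 passed) all but SPIB were lost. With so few calls over all genes, these losses say little about the 4 genes themselves. Without 1 of the 5 arrays their log2 differences were -1.03 to -0.94 for SPIB and -0.86 to -0.65 for CR2. For BLNK they were -1.57 to -1.35 and for IRF4 0.62 to 0.72. No T cell gene described here was tested against a B cell gene. In bulk RNA, fewer cells with a transcript and less of it per cell cannot be told apart.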

How the data were processed

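The deposited values are log2 values per probe set, and the submitters' processing notes name affy, an R package, as the tool. For its version and for the background and summary steps, the sources used here give nothing. The values were used as deposited. Of 8793 probe sets, 47 controls were left out. The platform's annotation gave 1 symbol for 7840 probe sets, several for 388 and none for 518, and each gene was represented by its brightest probe set. LY294002 was compared with DMSO by limma 3.58.1 in R 4.3.3 (lmFit and eBayes, group as the only term, 3 residual degrees of freedom) over 8746 probe sets, with Benjamini-Hochberg adjustment over all of them at 0.05. Errors of differences are standard errors of this fit. The script was tested on simulated data. For arrays, their number limits the precision. The members and lists were chosen with earlier results of these data known. Named genes are all members, all genes past the threshold in a list and the 3 brightest of each list. CD14, CSF1R, BCL11B, ZBTB7B, ZBTB16 and TBX21 lie outside this rule and were picked with their values known. Alternatives were other normalizations, a filter on dim probe sets, other variance settings, array weights, the replicate block, averaging the probe sets of a gene and leaving out 1 array at a time. After seeing the data, cyclic loess and a line set by genes of other tissues were added. Figures were drawn with matplotlib 3.10.9.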

Additional observations from a re-analysis of the deposited data

How the results depend on the processing

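The count of T cell genes past the threshold was 0 of 9 in all alternatives except quantile normalization, where it was 1 (CD4, adjusted p = 0.0396). Of 122 differences recomputed for single T cell genes, 119 kept their sign and their side of the threshold. The exceptions were CD4 after quantile normalization (-0.28) and CD247, which was 0.0074 after cyclic loess and ran from -0.045 to 0.011 without 1 array, with 0.011 without LY294002 replicate 1. CD4 ran from -0.28 to -0.17 over all alternatives. The number of T cell genes above the array median was 5 in all alternatives except the 60th percentile as the line, with 3, and the highest of the genes of other tissues as the line, with 2. Over all genes, 70 passed as reported, 299 after quantile normalization, 264 after cyclic loess, 203 of 4642 without dim probe sets, 147 after median centring, 17 with array weights, 1 without variance moderation, and 0 to 4 without 1 array. With the replicate block 0 genes passed, of all genes and of the T cell genes (820 and 0 at an unadjusted p under 0.05), and the difference of CD4 was -0.22 (adjusted p = 0.538). DMSO replicate 3 has no LY294002 array of its number, so it adds nothing to the differences in that fit. They were those found without DMSO replicate 3. Little power is left with so few arrays and an added term, so 0 calls there say little. Same-numbered arrays deviated from their group means with r = 0.0021 for number 1 and -0.21 for number 2, and the highest values were 0.21 (DMSO replicate 2 with LY294002 replicate 1) and 0.20 (DMSO replicate 3 with LY294002 replicate 2). With 2 LY294002 arrays these deviations mirror each other, so whether the numbers pair the arrays cannot be settled here, and the labels give no shared culture or day. The cause of these changes was not tested. Without dim probe sets 5 of the 9 genes were left.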
